A study of Mus musculus with 8 samples.

Results

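The genes described here are 35 genes of the cell cycle and of DNA replication, measured in CD8 T cells sorted from mammary tumours of mice labelled Mtdh (metadherin) KO or WT. They were taken by name from the deposited table of 19673 genes: 13 replication genes and 22 mitotic genes. All 35 were listed, and all 35 were among the 16120 genes with a mean normalized value of at least 10 that were tested. None of the 35 differed between KO and WT hosts past the threshold (limma adjusted p from 0.766 to 0.996), where 0.236% of all tested genes did. An unadjusted limma p under 0.05 was found for 0 of the 35 and for 6.70% of all tested genes. The 7 genes of licensing and the replication fork among them all had small positive changes, while 25 of 35 further replication genes had negative ones. Of all tested genes, 43.4% had a positive change and 56.6% a negative one. The scarcer mitotic genes mostly had negative changes with wide errors.

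Both groups carried tumours of Py8119, a mouse mammary carcinoma line, and the host's own genotype was what differed. Hosts were labelled Mtdh KO or wild type (WT), and each group had 4 biological replicates, called KO or WT library 1 to 4. The labels used here give neither the deleted allele and the host cells in which it was deleted, nor the animals' strain, age and sex. Cells were sorted as live CD45+CD3e+CD8+ cells, and total RNA without ribosomal RNA was sequenced.

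A cell that leaves quiescence passes a restriction point in G1, where cyclin-dependent kinases inactivate Rb family proteins and release E2F factors. E2F then drives the genes of origin licensing, nucleotide supply and the replication fork. Genes of G2 and mitosis are held back by the DREAM complex in quiescent cells and are switched on later by MuvB with B-Myb and FoxM1. Activated CD8 T cells divide faster than most mammalian cells, and transcripts such as Mki67 and Top2a are widely read as a sign of their expansion. Every dividing cell type uses these genes, so in a bulk library fewer dividing cells and less transcript per cell cannot be told apart, nor can dividing T cells and other dividing cells.

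Estimated depth was 16400000 to 29600000 reads per library, but the number of distinct cDNA fragments behind them was estimated at only 115000 to 643000. By this estimate a single fragment was worth a normalized value of 149 in KO library 2, 38.5 to 77.8 in the other KO libraries and 23.6 to 64.4 in the WT libraries. In KO library 2, 10 of the 35 genes were at or below the worth of 1 fragment, against 0 to 3 in each of the other 7 libraries, and over all libraries 23 of the 35 stayed above it throughout. Mtdh itself averaged 3905 ± 1179 in KO, against 9113 ± 2699 for WT (SD, n = 4 per group), so that 42.6% of the WT level remained on the log2 scale of the fit, and the KO libraries held between 2538 and 5118. It was lower by limma (adjusted p = 0.0400, log2 fold change -1.23, SE 0.25), but not when KO library 2, 3 or 4 or WT library 1 or 2 was left out (limma adjusted p from 0.0560 to 0.241). Cd8a was present in every library, between 1565 and 13355. Of the 12 CD8 T cell markers, 3 were below a value of 3 in WT library 2 (Cd3d, Zap70 and Cd2) and 1 in KO library 1 (Zap70). The 12 CD8 T cell markers summed to 20903 to 45302 in KO and 7821 to 26712 in WT, WT library 2 being the lowest. All 15 macrophage and monocyte markers were detected too, none at 0, and they summed to 115549 to 252027 in KO and 190140 to 296867 in WT. Their sum over that of the CD8 markers was 2.55 to 12.1 in KO and 7.12 to 31.0 in WT. Lyz2 alone made up 65.1% to 74.2% of the macrophage sum, and without it the ratio was 0.89 to 3.12 in KO and 2.25 to 8.11 in WT. Red blood cell markers summed to 0 to 1.30 in KO and 101 to 256 in WT. Dendritic cell markers summed to 2269 to 3470 in KO and 985 to 1650 in WT, and B cell markers to 457 to 1090 and 164 to 348. CD4 and regulatory T cell markers, mostly Ikzf2, summed to 3941 to 6190 in KO and 1808 to 2845 in WT. Sums of fibroblast, tumour and epithelial, endothelial, and NK and gamma-delta T cell markers overlapped between groups. Of all marker genes tested, Ikzf2 alone passed, higher in KO (limma adjusted p = 0.0379). The part of other cells in the values below was not tested.

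**Figure D1:**
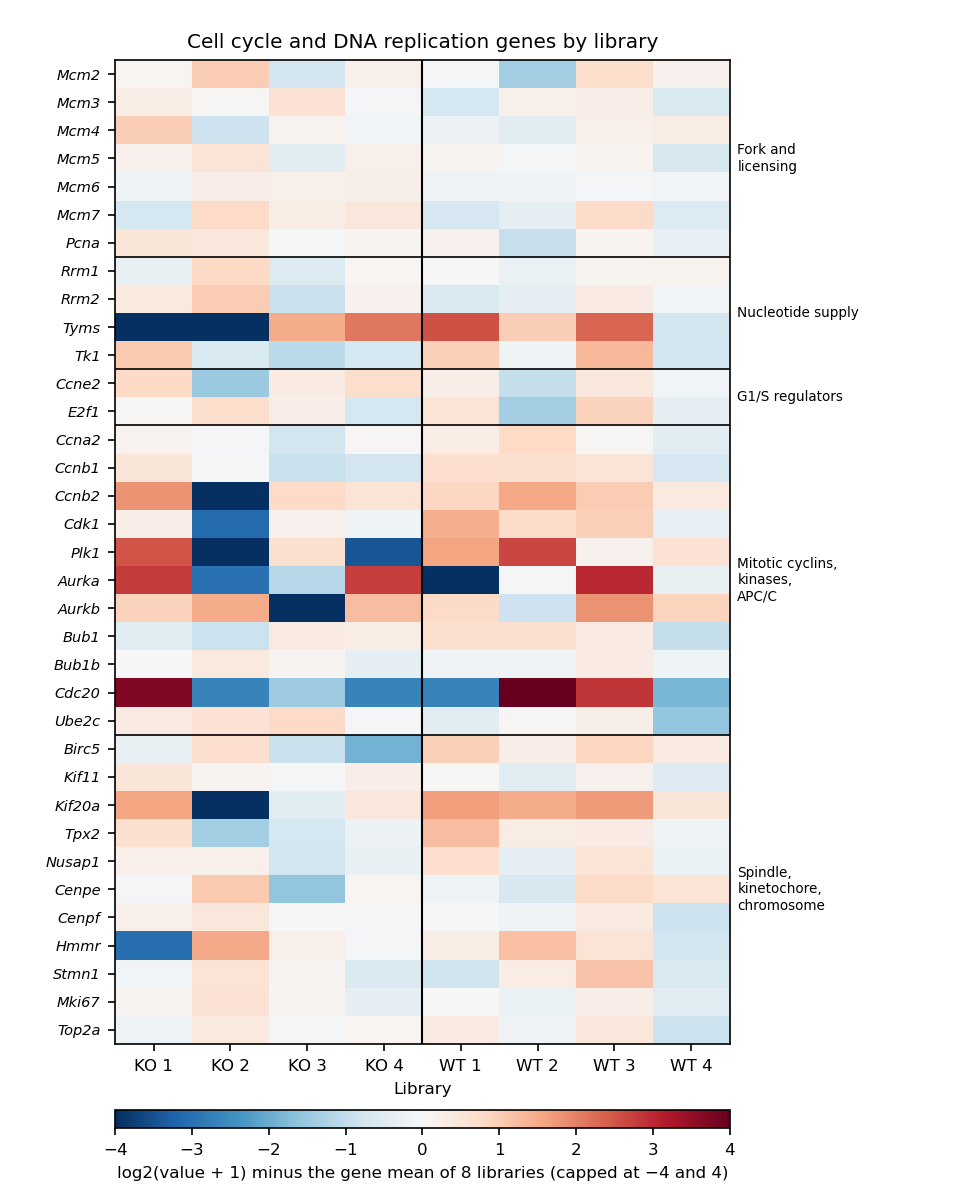
Normalized values of the 35 genes (rows, by role) in the 4 KO and 4 WT libraries (columns), as log2(value + 1) minus the gene's mean over the 8 libraries. Rows of scarce genes such as Tyms, Plk1, Aurka and Cdc20 swing between libraries of the same group, and the abundant genes stay close to their mean in all 8.

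Levels were compared between genes per kilobase of exon. Pcna, the sliding clamp of DNA polymerase, had the highest level, at 1337 ± 251 per kilobase in KO and 995 ± 316 in WT libraries (SD, n = 4 per group), above 96.2% of tested genes with an exon length. Ccna2, the cyclin of S phase and early mitosis, followed at 801 ± 194 in KO and 1032 ± 366 in WT. Pcna was thus above Ccna2 beyond their SDs in KO, and in WT their means lay within their spread. Top2a, the topoisomerase that disentangles sister DNA, and Rrm2, the regulated subunit of ribonucleotide reductase, came next at means over all libraries of 466 and 446 per kilobase. Below these, levels lay between 248 (Mcm5) and 29.8 (Plk1), and the scarcest were Aurka at 19.5, Cdc20 at 19.5 and Tyms at 17.8. The median tested gene had 61.3 per kilobase, which 24 of the 35 genes exceeded.

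The 7 genes of the licensing complex and the fork among the 35 all had small positive changes, and none passed. The MCM proteins 2 to 7 form the ring that is loaded at origins and becomes the replicative helicase. The 7 genes of this group had log2 fold changes of 0.09 (Mcm4) to 0.47 (Pcna), with a median of 0.28, against a median of -0.12 over all tested genes, of which 43.4% were positive. Tested genes with a mean of at least 500, as all of the 7 but Mcm4 and Mcm7 had, were closer, with a median of -0.00045 and 50% positive. Summed over the 7 genes, the KO level was 7942 ± 1143 and the WT level 6297 ± 1322 (SD over 4 libraries), with ranges of 6601 to 9219 and 4784 to 7886 that overlapped. All 7 signs held under each scaling tried, but Mcm4 was at -0.22 without KO library 1. Leaving out WT library 2 put both Mcm2 and Mcm4 below 0 (-0.13 and -0.05), as sample weights did (-0.15 and -0.05). Mcm2 was at -0.003 without KO library 2, and at -0.42 without KO and WT library 2 together.

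Pcna (ENSMUSG00000027342, chromosome 2, 132091082 to 132095234 of mm39) was at 3778, 3646, 2531 and 2876 in KO libraries 1 to 4, and at 3053, 1412, 2918 and 2164 in WT libraries 1 to 4. WT library 2 was the lowest of all, KO libraries 1 and 2 were the highest, and the groups overlapped. Its log2 fold change was 0.47 (SE 0.26, 95% interval -0.07 to 1.01, limma adjusted p = 0.770), and 0.24 without WT library 2. Mcm6 (chromosome 1, 128259327 to 128287401) was at 1022, 1336, 1287 and 1310 in KO, against 971, 1008, 1049 and 1036 in WT. The WT values lay close together, and 3 of the 4 KO values were above all of them, with KO library 1 among them. Its log2 fold change was 0.28 (SE 0.26, 95% interval -0.27 to 0.83, limma adjusted p = 0.834). Mcm3 was at 696, 586, 860 and 557 in KO and at 346, 652, 684 and 370 in WT, so that WT libraries 1 and 4 were below every KO library (log2 fold change 0.44, SE 0.38). Mcm5 was at 1091, 1407, 699 and 1103 in KO and at 1042, 924, 1052 and 617 in WT, with its highest value in KO library 2 and its lowest in WT library 4 (0.23, SE 0.31). Mcm2 ranged from 507 to 1685 in KO and 322 to 1357 in WT, and Mcm7, the scarcest of the helicase subunits per kilobase, from 112 to 308 in KO and 113 to 312 in WT.

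**Figure D2:**
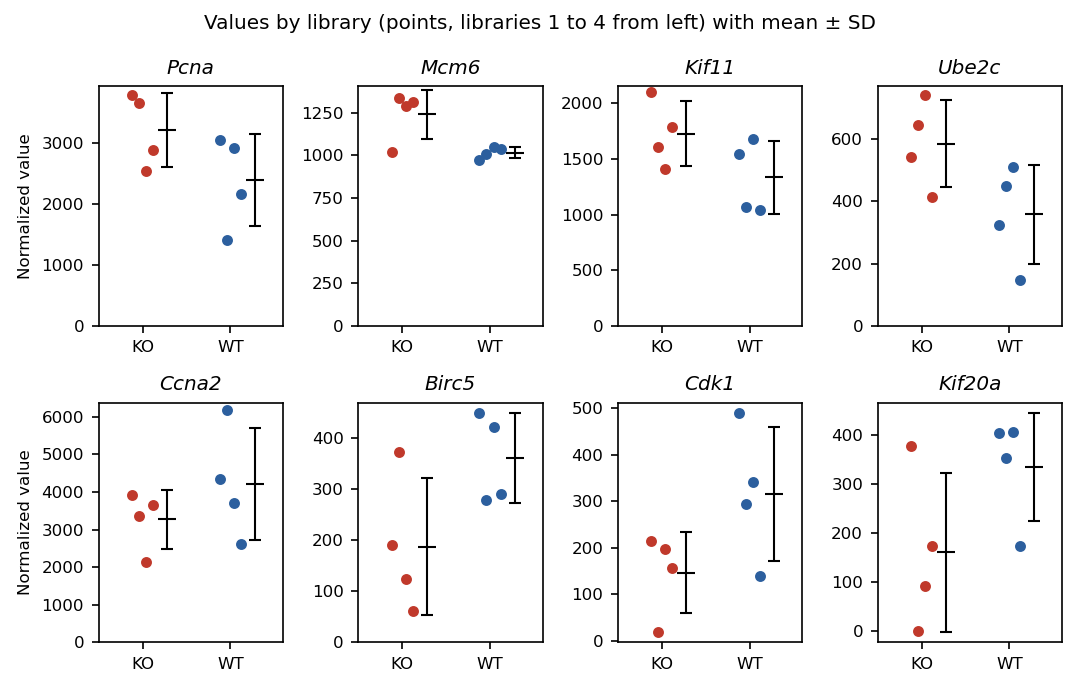
Normalized values of 8 genes in the 4 KO libraries (red) and the 4 WT libraries (blue), with mean ± SD beside the points. Pcna, Mcm6, Kif11 and Ube2c had the higher mean in KO and Ccna2, Birc5, Cdk1 and Kif20a in WT, and the points of both groups overlap in each panel.

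Promoter letters of the fork and mitotic genes are shown to set the regulatory background beside these values. Of the 35 genes, 28 had a window of 300 bases in the RefSeq promoter table (GRCm38.p6), from 250 before to 50 after the start, with 29 windows in all, and Kif20a, Aurkb, Ccna2, Stmn1, Mcm4, Ccne2 and Tpx2 had none. Motifs were searched on both strands as exact letters. E2F letters were TTCCCGC and its variants with GGC, CGC or GCC after the first TT in place of CCC, each ending in GC. The cell cycle homology region (CHR), which MuvB complexes bind, was searched as TTTGAA or TTCGAA, and the box bound by NF-Y as CCAAT. E2F letters were in 7 of 12 replication windows (58.3%), in 4 of 17 mitotic windows (23.5%) and in 9.57% of all 32851 promoters. The 12 replication windows are of 11 genes, since Mcm7 has 2, both with E2F and CCAAT letters, and it is counted by window here. CHR letters were in 13 of 17 mitotic windows (76.5%), in 2 of 12 replication windows (16.7%) and in 19.2% of all promoters. CCAAT was in 15 mitotic and 9 replication windows and in 37.4% of all promoters. Matches describe letters only, and no binding was measured.

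The 180 bases upstream of the start are given for a pair of fork genes with E2F letters, by GRCm38.p6 positions. These are Mcm5 (chr8:75109329-75109508, plus strand) and Mcm6 (chr1:128359706-128359885, minus strand), with E2F and CCAAT letters in capitals, 5′ to 3′. The E2F matches overlap in TTCGCGCCAA of Mcm5 and in both TTGGCGCGAA runs of Mcm6.
Mcm5: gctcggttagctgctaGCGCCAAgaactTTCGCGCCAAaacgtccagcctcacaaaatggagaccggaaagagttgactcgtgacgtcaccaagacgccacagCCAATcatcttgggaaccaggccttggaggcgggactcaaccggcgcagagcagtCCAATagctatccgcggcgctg
Mcm6: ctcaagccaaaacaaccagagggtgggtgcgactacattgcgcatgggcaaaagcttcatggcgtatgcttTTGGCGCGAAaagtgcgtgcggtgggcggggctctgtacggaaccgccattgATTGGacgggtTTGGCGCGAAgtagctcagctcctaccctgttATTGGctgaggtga

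The 4 genes of nucleotide supply did not share a direction. Ribonucleotide reductase makes the DNA precursors, and its large subunit Rrm1 was at 1832, 3943, 1560 and 2367 in KO and at 2274, 1888, 2426 and 2498 in WT. KO library 2 stood above the other 7, and the fitted difference was 0.01 on the log2 scale (SE 0.27, 95% interval -0.55 to 0.57), which turned negative under 3 other scalings. Rrm2 was at 1484, 2314, 622 and 1299 in KO and at 763, 900, 1441 and 1060 in WT, with both the highest and the lowest value in KO (0.35, SE 0.35). Tyms, thymidylate synthase, was at 0.904, 1.10, 117 and 182 in KO and at 247, 82.3, 211 and 24.4 in WT. It was at about 1 read in KO libraries 1 and 2, and its log2 fold change of -2.58 had an SE of 1.85 and an interval of -6.45 to 1.28. Tk1, the thymidine kinase of the salvage pathway, was at 439, 141, 100 and 129 in KO and at 411, 193, 542 and 124 in WT (-0.68, SE 0.71). Its KO value was high in library 1 alone.

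The regulators of S phase entry were near the middle of the groups. Ccne2, a cyclin that activates Cdk2, was at 519, 106, 380 and 485 in KO and at 358, 154, 412 and 278 in WT (log2 fold change 0.17, SE 0.60). E2f1, the activating E2F factor, was at 244, 381, 284 and 146 in KO and at 343, 88.9, 452 and 180 in WT (0.16, SE 0.66). Both had their lowest WT value in WT library 2, without which they were at -0.12 and -0.28.

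Among mitotic genes, 15 of 22 had a negative change and none passed. Their median log2 fold change was -0.33, where 56.6% of all tested genes were negative. The summed KO level was 17873 ± 2526 and the summed WT level 19165 ± 4783 (SD over 4 libraries), WT library 4 being the lowest of the 8 at 12114 and WT library 3 the highest at 22589. Most of the negative changes were those of scarce genes. The 9 mitotic genes with a mean of at least 500 had a median of 0.08 (-0.18 with sample weights), with 5 positive and 4 negative. The 13 with a lower mean had a median of -1.19, with 11 negative, and this median was -0.82 with a pseudocount of 10 and -0.40 with 50. Tested genes with a mean below 500 had a median of -0.34 with 60.0% negative, and those above it a median of -0.00045. Of the 13 scarce genes, 7 were at or below the worth of 1 fragment in KO library 2, and without that library their median was -0.62 with 10 negative.

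**Figure D3:**
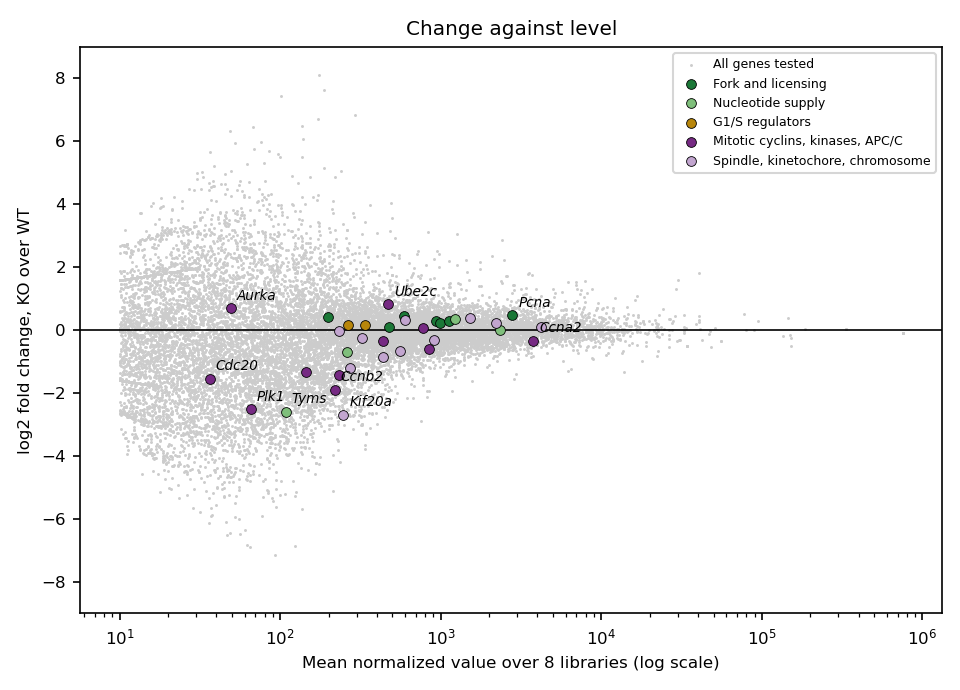
log2 fold change, KO over WT, against the mean normalized value over 8 libraries (log axis) for all 16120 tested genes (grey) and the 35 genes (coloured by role). The cloud widens towards low means, where Plk1, Tyms, Kif20a and Cdc20 lie within it, and the most abundant of the 35 genes lie close to 0.

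Cyclins that drive G2 and mitosis had negative changes that did not pass. Ccna2 (ENSMUSG00000027715, chromosome 3, 36619014 to 36626299 of mm39) was at 3926, 3353, 2137 and 3664 in KO, against 4356, 6174, 3710 and 2611 in WT. WT library 2 had by far the highest Ccna2 value and also the lowest Pcna value of all libraries. The log2 fold change of Ccna2 was -0.33 (SE 0.26, 95% interval -0.88 to 0.21, limma adjusted p = 0.803). Ccnb1 was at 1069, 783, 413 and 450 in KO and at 1232, 1200, 1110 and 479 in WT (-0.58, SE 0.39). In WT only library 4 was among the KO values. Ccnb2 was at 417, 0, 201 and 174 in KO and at 210, 345, 242 and 155 in WT, and its change of -1.89 (SE 1.42) rested on the 0 of KO library 2, since without that library it was 0.10.

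Cdk1, the kinase these cyclins activate (ENSMUSG00000019942, chromosome 10, 69170976 to 69188768), was at 214, 19.8, 197 and 156 in KO and at 489, 293, 343 and 140 in WT. Its WT values in libraries 1 to 3 were above every KO value, and WT library 4 was among them. The log2 fold change was -1.41 (SE 0.84, 95% interval -3.17 to 0.34, limma adjusted p = 0.770), and -0.62 without KO library 2. Plk1, a kinase of mitotic entry, was at 155, 0, 41.6 and 1.58 in KO and at 80.9, 175, 30.1 and 40.2 in WT. The Aurora kinases were also scarce. Aurka, of centrosomes and spindle, lay between 1.10 and 115 in KO and between 0 and 133 in WT. Aurkb, of the chromosome passenger complex, lay between 0 and 220 in KO and between 43.5 and 275 in WT. These 3 kinases had SEs of 1.55 to 2.17, so changes of several fold either way lie within their intervals.

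The checkpoint and the anaphase-promoting complex, which halts and then triggers chromosome separation, gave values in both directions. Bub1 and Bub1b, kinases of the spindle checkpoint, had log2 fold changes of -0.34 (SE 0.49) and 0.08 (SE 0.32). Bub1b was among the steadiest of the mitotic genes, with 585 to 1010 in KO libraries and 673 to 958 in WT libraries. Cdc20, the activator of the complex, was at 81.3, 0, 1.30 and 0 in KO and at 0, 163, 44.7 and 0.788 in WT. It was thus above the worth of 1 fragment in 1 KO library and in 2 WT libraries. Ube2c, its ubiquitin-conjugating enzyme (ENSMUSG00000001403, chromosome 2, 164611818 to 164620742), had the most positive change of the 35, with 541, 644, 740 and 414 in KO and 325, 449, 509 and 148 in WT. KO libraries 1 to 3 were above every WT library and KO library 4 was not. The log2 fold change was 0.82 (SE 0.47, 95% interval -0.16 to 1.79, limma adjusted p = 0.770), and 0.44 without WT library 4.

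The upstream stretches of Cdk1 (chr10:69352913-69353092, minus strand) and Ube2c (chr2:164769749-164769928, plus strand) are given by GRCm38.p6 positions, unlike the mm39 gene positions above. They are shown because these mitotic genes had changes of opposite sign and both hold CHR and CCAAT letters. Those letters are in capitals, with the E2F letters of Cdk1.
Cdk1: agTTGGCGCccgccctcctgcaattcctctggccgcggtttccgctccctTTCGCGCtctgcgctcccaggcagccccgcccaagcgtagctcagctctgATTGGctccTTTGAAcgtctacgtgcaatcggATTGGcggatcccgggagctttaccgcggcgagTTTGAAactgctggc
Ube2c: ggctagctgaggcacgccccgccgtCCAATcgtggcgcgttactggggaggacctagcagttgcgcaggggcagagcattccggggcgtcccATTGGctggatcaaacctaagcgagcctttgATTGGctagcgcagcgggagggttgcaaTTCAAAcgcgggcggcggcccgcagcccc

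Of the 11 spindle and chromosome genes, 7 had a negative change and none passed. Kif20a, a motor of cytokinesis, had the smallest unadjusted p of the 35 (0.0640; log2 fold change -2.68, SE 1.37, limma adjusted p = 0.766). It was at 379, 0, 91.3 and 173 in KO and at 404, 354, 407 and 174 in WT. WT library 4 was level with KO library 4, and the change was -0.80 without KO library 2. Birc5, the survivin subunit of the chromosome passenger complex, was at 191, 372, 125 and 62.4 in KO and at 450, 278, 422 and 292 in WT, so that KO library 2 alone reached into the WT range (-1.19, SE 0.66, 95% interval -2.56 to 0.17). Kif11, the motor that separates spindle poles, was at 2101, 1606, 1411 and 1785 in KO and at 1543, 1069, 1677 and 1045 in WT. WT libraries 2 and 4 were below every KO value, and the change was 0.39 (SE 0.26, 95% interval -0.16 to 0.94).

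Tpx2 and Nusap1, which organise spindle microtubules, were at -0.84 (SE 0.51) and -0.30 (SE 0.35) on the log2 fold change scale. The kinetochore proteins Cenpe and Cenpf were at -0.24 (SE 0.62) and 0.32 (SE 0.38). Hmmr, a spindle assembly factor and hyaluronan receptor, was at 50.6, 1188, 474 and 399 in KO and at 511, 963, 603 and 250 in WT. KO library 1 was its lowest and KO library 2 its highest, and the change of -0.67 (SE 0.70) was 0.22 without KO library 1. Stmn1, which destabilises microtubules, was at -0.02 (SE 0.67).

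The most used proliferation markers did not differ detectably, and their limits were narrow. Mki67, which coats mitotic chromosomes (ENSMUSG00000031004, chromosome 7, 135291513 to 135318090), was at 2336, 3179, 2335 and 1670 in KO and at 2128, 1788, 2598 and 1604 in WT. Its log2 fold change was 0.22 (SE 0.25, 95% interval -0.31 to 0.74, limma adjusted p = 0.859). Top2a was at 3483, 5329, 3876 and 4316 in KO and at 5125, 3683, 5593 and 2214 in WT, so that WT held both its extremes. Its change was 0.10 (SE 0.26, 95% interval -0.44 to 0.65, limma adjusted p = 0.958). For Mki67 and Top2a the intervals leave out a doubling and a halving in KO, which is 1 and -1 on this scale. Those of the scarcer Stmn1 (-1.42 to 1.39) and Aurka (-3.84 to 5.24) include both.

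**Figure D4:**
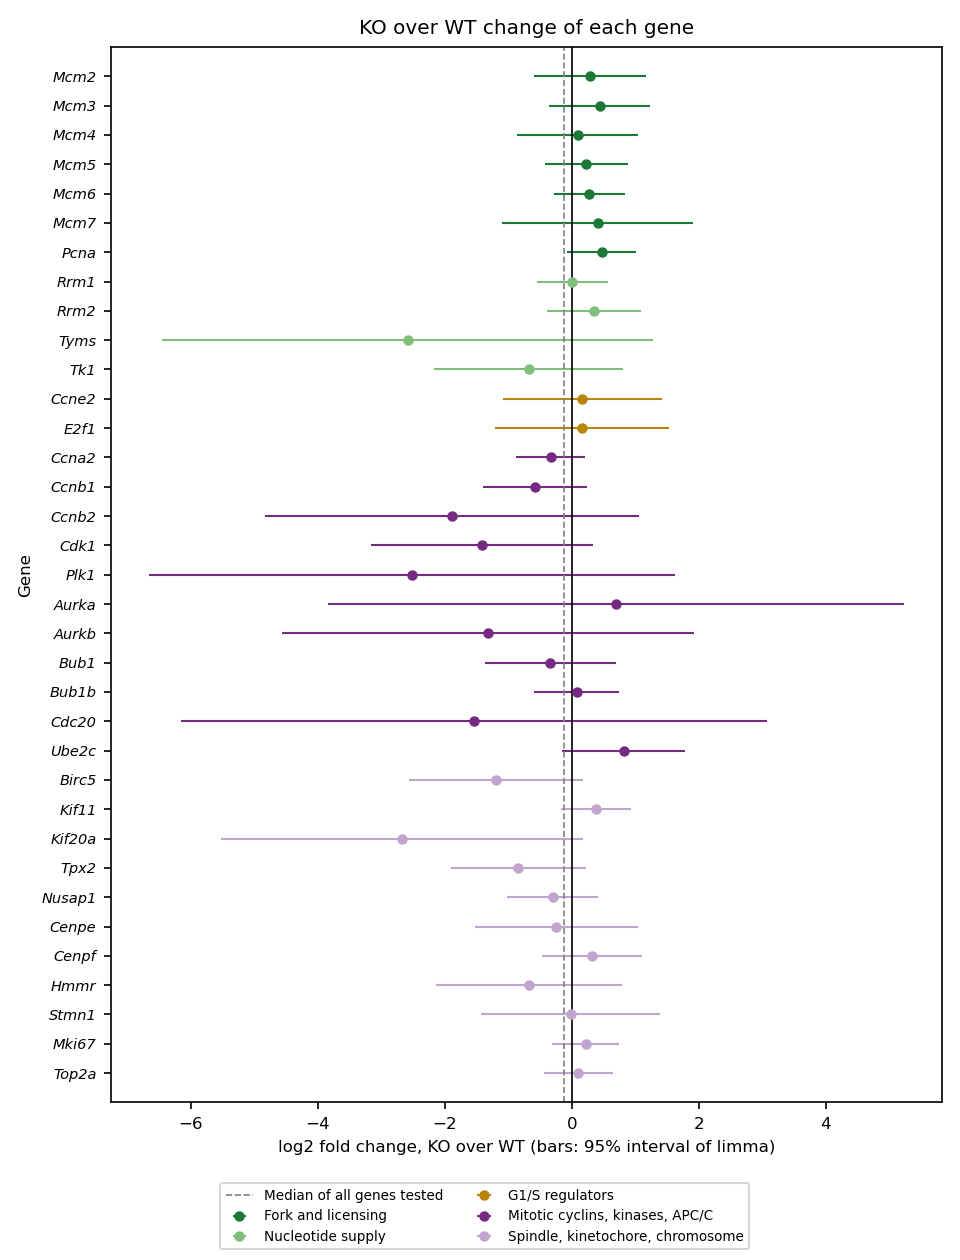
log2 fold change, KO over WT, of each of the 35 genes with its 95% interval from limma, coloured by role, with the median of all tested genes dashed. Every interval includes 0, and those of Pcna, Mcm6, Mki67 and Top2a are far narrower than those of Plk1, Cdc20 and Aurka.

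Counted over all 35 genes, limma called 0 at an adjusted p under 0.05, where it called 0.236% of all tested genes (0.211% higher and 0.0248% lower in KO). At an unadjusted p under 0.05 the count was 0 of 35, where the share of all tested genes was 6.70% (3.21% higher and 3.49% lower). The 4 KO values were wholly above or wholly below the 4 WT values for 0 of 35 genes, where that was so for 4.11% of tested genes (2.02% above and 2.09% below). The count of calls stayed at 0 under each of the 20 alternatives run, which include each single omission of a library. Over these alternatives 0 to 3 of the genes had an unadjusted p under 0.05, where 4.58% to 9.68% of all tested genes did. Without KO library 1 there were 3 of 35 genes at an unadjusted p under 0.05 and 3 of 35 without overlap, where the shares of all tested genes under that omission were 8.24% and 8.33%.

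Replication and mitotic genes did not keep a fixed proportion across libraries. The summed mitotic level over the summed replication level was 1.46, 1.29, 1.56 and 1.38 in KO libraries 1 to 4 and 1.94, 2.52, 1.69 and 1.22 in WT libraries 1 to 4. WT libraries 1 to 3 were above every KO library and WT library 4 was below them all, with means of 1.42 ± 0.115 (KO) and 1.84 ± 0.541 (WT; SD over 4 libraries). WT library 2, with the highest proportion, also had the lowest CD8 marker sum and the highest macrophage over CD8 ratio, and what part this had was not tested. The 13 replication genes had a median change of 0.23, which became -0.05 if WT library 2 was left out, 0.09 if KO library 2 was, and 0.35 if WT library 3 was. For the 22 mitotic genes the median became -0.13 if KO library 3 was left out and -0.62 if WT library 4 was.

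**Figure D5:**
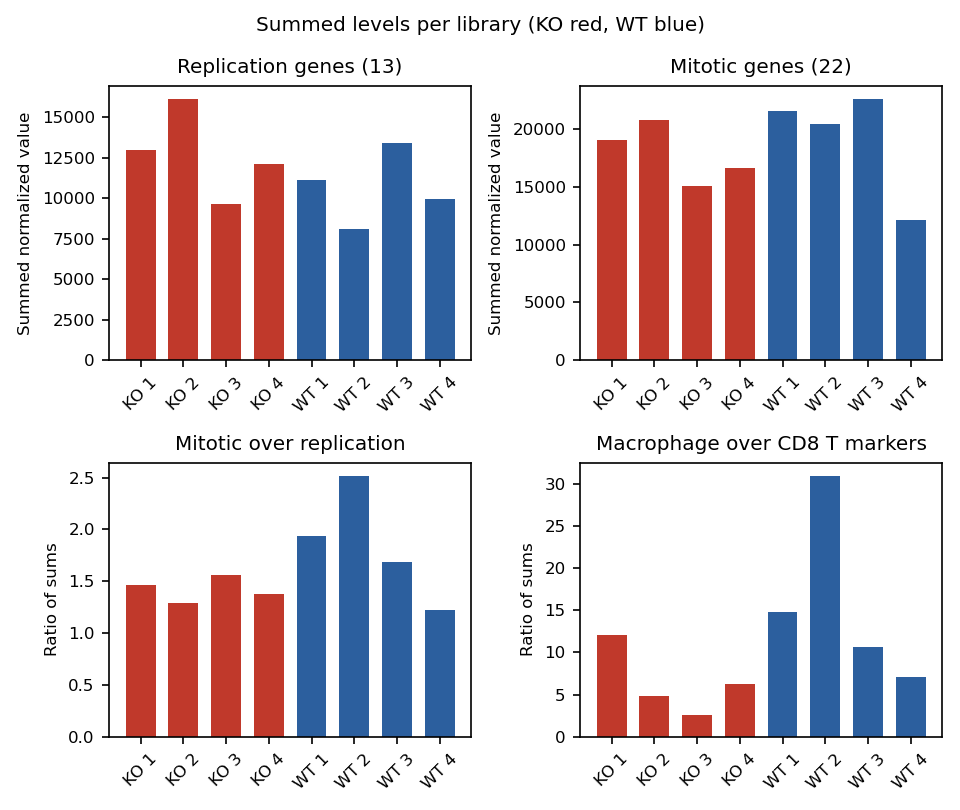
Summed normalized values of the 13 replication genes and the 22 mitotic genes, their ratio, and the ratio of summed macrophage to CD8 T cell markers, in each KO (red) and WT (blue) library. WT library 2 has the lowest replication sum, the highest mitotic over replication ratio at 2.52 and the highest macrophage over CD8 ratio at 31.0.

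Other genes of the pathway were followed as 4 lists, and none of their genes passed either. Over all tested genes, 56.6% had a negative change and 3.49% were lower at an unadjusted limma p under 0.05. Every KO value was below every WT value for 2.09% of all tested genes. Of 35 further replication genes, which include other genes of licensing and the fork, 25 had a negative change (median -0.25). Most genes of this list had a mean below 500, and of all tested genes below that mean 60% were negative (median -0.34). At an unadjusted p under 0.05 there were 2 of the list, both lower. These were Gmnn, the inhibitor of licensing, at 0, 0, 42.9 and 0 in KO and 105, 21.8, 98.4 and 117 in WT, and Hells, a chromatin remodeller (-0.75, SE 0.34). Atad2, the most abundant gene of that list, was at -0.04 (SE 0.22). Gmnn was just above the worth of 1 fragment in KO library 3 and below it in WT library 2. Of 45 further mitotic genes, 30 were negative (median -0.30) and 2 had an unadjusted p under 0.05, both lower: Anln and Ncapg. Anln (anillin), the scaffold of the cleavage furrow, was at 1148, 504, 740 and 1231 in KO and at 1491, 2376, 1702 and 1316 in WT. Its groups did not overlap (log2 fold change -0.98, SE 0.32, limma adjusted p = 0.466). Ncapg, a condensin subunit, was at 539, 253, 390 and 388 in KO and at 1005, 825, 757 and 423 in WT (-0.92, SE 0.41), and the most abundant gene of that list, the condensin subunit Smc4, was at -0.39 (SE 0.34).

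No gene among the regulators of G1 and quiescence passed. Over all tested genes, 43.4% had a positive change and 3.21% were higher at an unadjusted limma p under 0.05. Every KO value was above every WT value for 2.02% of all tested genes. Of 23 tested G1 cyclins, CDKs and pocket proteins, 15 were positive (median 0.07), and Cdk6, the partner of D cyclins, was at 13070, 16646, 11183 and 16552 in KO and at 9664, 7978, 9819 and 9842 in WT. Every KO value of Cdk6 was above every WT value (log2 fold change 0.61, SE 0.20, limma adjusted p = 0.461). Tfdp1, the dimer partner of E2F, was at -0.57 (SE 0.25). Of 20 CDK inhibitors and quiescence genes, 14 were positive (median 0.30) and 4 had an unadjusted p under 0.05, all higher. Cdkn1a, which encodes the CDK inhibitor p21, was at 2011, 2216, 1529 and 2374 in KO and at 590, 964, 844 and 976 in WT. The groups of Cdkn1a were wide apart (1.28, SE 0.28), and its limma adjusted p of 0.0594 missed the threshold, with a range of 0.00454 to 0.561 over the alternatives. Tob2 and Slfn2, named here after their values were seen, were the others without overlap. The antiproliferative gene Tob1 was at 0.73 (SE 0.31), and Btg2, the most abundant of that list, at 0.24 (SE 0.21).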

How the data were processed

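RNA of sorted CD8 T cells was measured in 4 KO and 4 WT libraries. What the authors deposited is a signal for each gene, namely an estimated read count scaled by a DESeq2 size factor, going by the table's name. The authors used Partek, STAR 2.7.8a, DESeq2 and mm39, per the submitters' processing notes, which give no roles; strandedness is not given in the sources used here. Steps between low values gave the worth of 1 read. Only 81.4% to 87.9% of low values (up to 500 reads) came out whole within 0.02 reads, so count models were not used. Distinct fragments were estimated from dropout: a Poisson draw of that many fragments would leave under 3 reads for as many genes (mean 20 to 500 elsewhere, no small RNAs) as observed. The estimate takes all of this dropout as sampling, and what part the mixture of cells had in it was not tested. Intervals are those of the fitted mean change between groups, with errors taken from the spread between libraries.

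The test was limma 3.58.1 in R 4.3.3 (eBayes with trend, two-sided) on log2(value + 1) for the 16120 genes whose mean was 10 or more, KO against WT without covariates, adjusted by Benjamini-Hochberg over all of them, with a threshold of 0.05. Fold changes are KO over WT on this scale. It shrinks changes of low genes, but a library at or near 0 can make the fitted change larger than the log2 ratio of group means: Tyms was at -2.58 and -0.91, Kif20a at -2.68 and -1.06, and Ccnb2 at -1.89 and -0.26. The model was tested on simulated data. Exon lengths are unions of exons of GENCODE M21, found by identifier for 16037 tested genes. Gene ends are 1 less than the listed stop. The members and lists were chosen with earlier results of these data known. Mtdh and all 35 members are named, and from each further pathway list the 2 genes of smallest p and the most abundant, as far as the text reaches them. Alternatives changed the pseudocount, minimum mean, scaling, replicate block, sample weights, moderation and the libraries included.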

Additional observations from a re-analysis of the deposited data

Results flagged for a closer look

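In 9 of the 98 groups of 4 libraries examined (each member, each named pathway gene, Mtdh and both summed levels, in KO and in WT), 1 library stood apart from the other 3 by Dixon's criterion, which chance passes in about 1 in 20 groups. Among replication genes, Mcm6 was low in KO library 1 at 1022, against 1287 to 1336 in the other KO libraries. Tk1 was high in KO library 1 at 439.1, against 100 to 140.9. Mcm7 was high in WT library 3 at 311.7, where the other WT libraries had 113.5 to 141. Among mitotic genes, Cdc20 was at 81.32 in KO library 1 and at most 1.299 in the other KO libraries. Ccnb1 was low in WT library 4 at 479.3, against 1110 to 1232. WT library 3 was high for Aurka at 133.1, against 0 to 15.14, and for Bub1b at 957.9, against 673.3 to 694.9. Among the further pathway genes, Gmnn was at 42.86 in KO library 3 and at 0 in the other KO libraries, and Cdk6 was low in WT library 2 at 7978, against 9664 to 9842.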

How the results depend on the processing

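No member passed the threshold in limma under any of the 20 alternatives, with 33 members tested at a minimum mean of 50 and 35 otherwise. The number of all genes called, 38, became 63 with a pseudocount of 10, 85 with 50, 15 with a minimum mean of 50, 112 with sample weights and 7 to 70 when libraries were left out. Members whose groups did not overlap numbered 0 to 3 over the omissions, where 6.09% to 10.1% of all tested genes did not. Calls among other pathway genes, 0, became 1 (Cdkn1a) with a pseudocount of 10 or 50, sample weights or robust moderation, and 0 to 1 over the omissions. Mtdh stayed at -1.23 but missed the threshold with a minimum mean of 50 (limma adjusted p = 0.0945) and without the intensity trend (limma adjusted p = 0.754), and it ranged from -1.38 to -1.04 over the omissions. Leaving out KO and WT library 2 together was added after seeing the data and gave 21 calls over all genes and 0 among the members.

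Members and named genes that changed sign were never called. Sample weights turned Mcm2 to -0.15, Mcm4 to -0.048, Rrm1 to -0.11, E2f1 to -0.53, Bub1 to 0.000552, Bub1b to -0.22, Mki67 to -0.10, Top2a to -0.00265 and Atad2 to 0.08 on the log2 scale. Rrm1 was at -0.00738 with upper-quartile scaling, -0.042 with quantile normalization and -0.040 with equal sums without small RNAs. Over the omissions, which include the pair of libraries 2, Mcm2 ranged from -0.42 to 0.57, Mcm4 from -0.22 to 0.39, Rrm1 from -0.34 to 0.19, Ccne2 from -0.12 to 0.69, E2f1 from -0.49 to 0.50, Ccnb2 from -2.80 to 0.30, Aurka from -0.54 to 1.91, Aurkb from -2.53 to 0.56, Bub1 from -0.71 to 0.055, Bub1b from -0.085 to 0.22, Cdc20 from -3.03 to 0.40, Cenpe from -0.89 to 0.24, Hmmr from -1.29 to 0.22, Stmn1 from -0.29 to 0.36, Top2a from -0.17 to 0.27, Smc4 from -0.71 to 0.02 and Atad2 from -0.14 to 0.11. The causes were not tested.

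Whether the replicate numbers pair the libraries cannot be told from these values. Deviations of same-numbered KO and WT libraries correlated at 0.016 to 0.076 across genes, and those of unlike numbers at -0.093 to 0.097. Not every library correlated best with its own number. Each deviation was taken from the mean of its own group, so this check cannot exclude a pairing. With a replicate block, 0 genes were called over all and 0 among the members, and Mtdh was at -1.23 (limma adjusted p = 0.0627).

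Below a mean of 500 the median SE of tested genes was 1.77, against 0.303 above it, and what part few fragments had in this was not tested.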
